A study of Oryza sativa with 6 samples.

Results

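The amino acid transporter genes of rice were described in roots of wild-type (WT) plants and of the mutant line mads61-3 of OsMADS61, a MADS-box transcription factor gene. Members were the rows of the deposited read-count table whose gene symbol begins with AAP, ATL, LHT, ProT, GAT or ANT and a number, with or without the prefix Os. Of 36960 features 50 met this rule, namely 19 AAP, 15 ATL, 5 LHT, 2 ProT, 5 GAT and 4 ANT genes. RNA was sequenced from 3 WT and 3 mads61-3 root samples of plants in a hydroponic nutrient solution with nitrate at 2.5 mM, a level the labels call high, and the study's question was what OsMADS61 does to nitrate transport where no fungal partner is present. The labels give neither the cultivar, the plant age nor the kind of lesion in mads61-3, a single mutant line, and they do not say whether samples of a group came from separate tanks. The p-values therefore cover the spread among these samples alone, and that spread may be technical.

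Plants move nitrogen between organs largely as amino acids, which cross membranes through carriers. The AAP proteins are amino acid permeases of broad range, LHT carriers are named for lysine and histidine and take up many amino acids at the root surface, and ProT carriers take proline and related compounds. GAT stands for carriers of gamma-aminobutyric acid (GABA), ANT for carriers of aromatic and neutral amino acids, and ATL for rice genes named as amino acid transporter-like, most of which have no role that can be stated here. Most of these proteins belong to the amino acid/auxin permease family and move their substrate together with protons. The files pair each locus with a symbol only. Numbers within a family differ between published naming schemes, so each gene is tied here to its locus. The symbols ATL3I (Os09g0375900) and GAT1 (Os02g0708100) stand outside the Os-prefixed series, OsGAT1 is another locus, and ATL is also a name of RING-type ubiquitin ligases, so whether ATL3I and GAT1 are transporters was not settled.

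Library totals ran from 24145708 to 34179150 reads, and 25531 features had enough counts to be tested. OsMADS61 itself had 552 and 573 CPM (read counts scaled to library size) in WT replicates 1 and 2 and 2.38 CPM in the third WT sample, hereafter the library labelled WT replicate 3. In the mutant it had 6.24, 2.41 and 4.63 CPM. Its transcript thus goes against the label of that library, and all directions below count that library as WT. Where 3 values are given for a group, they stand in the order of replicates 1 to 3. Of 3 root markers, the silicon transporters LSI1 and LSI2 together with RCc3, the summed level was 1626 to 3085 CPM in WT and 2997 to 7059 CPM in the mutant. The 3 overlapped between groups and lay on both sides of 0, with log2 fold changes of 1.45 for LSI1, 1.70 for LSI2 and -2.56 for RCc3, none past the threshold in edgeR and all past it in DESeq2 (adjusted p = 0.0359, 0.046 and 0.0495). RCc3 stood at 28.5, 216 and 940 CPM in WT and at 68.5, 77.0 and 56.0 CPM in the mutant. Photosynthesis genes chosen as shoot markers, of which 6 of 7 were in the table, summed to 2.06, 20.1 and 7.15 CPM in the libraries labelled WT and to 21.1, 233 and 92.8 CPM in the mutant. In 4 of the 6 every mutant library was above every library labelled WT, against 11.4% of all features tested. Of the 6, 0 were at 0 throughout WT. The part of these markers in the differences below was not tested. Of 2 markers of root cells that hold a fungal partner, AM3 had no read and PT11 reached 0.698 CPM in mutant replicate 3 alone.

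Amino acid transporter transcripts were dominated by 1 gene, OsATL5 (Os06g0633800, chromosome 6). Levels between genes were compared in FPKM, the authors' fragment values scaled to gene length and library size. OsATL5 had 420, 242 and 259 FPKM in the libraries labelled WT and 470, 330 and 558 FPKM in the mutant. In CPM, the scale nearer to the fits, these were 996, 472 and 515 against 946, 602 and 1171, with WT replicate 1 above mutant replicates 1 and 2. It made up 36.9% ± 9.36 of the summed FPKM of all members in WT and 52.1% ± 9.98 in the mutant (mean ± SD, n = 3 each), and the 2 ranges overlapped. The log2 fold change (mutant over WT) of OsATL5 was 0.46 (SE 0.42), with a 95% interval from -0.53 to 1.44, which missed the threshold (edgeR, adjusted p = 0.65).

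**Figure D1:**
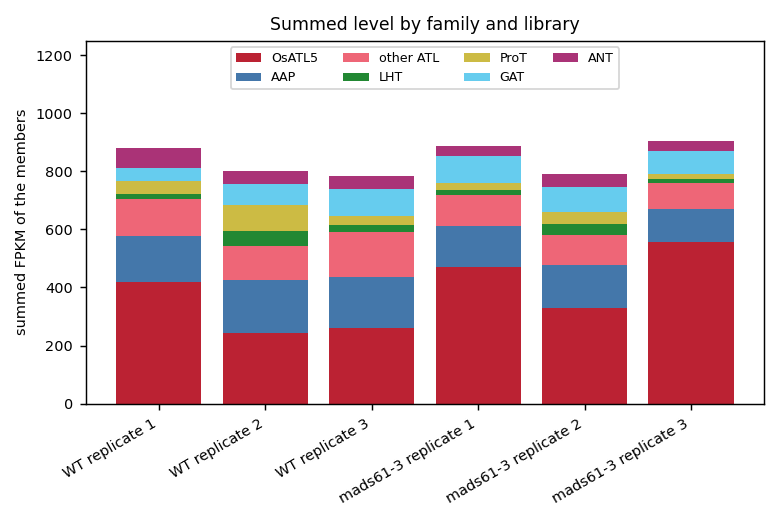
Summed FPKM of the members in each of the 6 libraries (bars from 0), with OsATL5 apart from the other ATL genes and the other families stacked on it. The full bars stand between 783 and 905 FPKM in both groups, while the OsATL5 segment ranges from 242 to 558 FPKM.

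The summed level of all members hardly set the groups apart, with 823 ± 52.2 FPKM in WT and 861 ± 61.2 FPKM in the mutant. OsATL5 was also left out, a choice made after seeing its level. The sums were then 516 ± 49.9 FPKM in WT and 409 ± 57.5 FPKM in the mutant. The lowest WT library then stood at 462 FPKM, next to the highest mutant library at 461 FPKM. By family, the AAP genes summed to 173 ± 13.9 FPKM in WT and 134 ± 19.4 FPKM in the mutant, without overlap between the groups. Without OsAAP11B, a choice made after seeing the data, the AAP sums were 130, 164 and 140 FPKM in WT and 141, 145 and 110 FPKM in the mutant, which overlapped. Sums of the other families overlapped. All these sums use FPKM, which lacks the TMM scaling between libraries that CPM and the fits carry. That scaling took WT replicate 1 from 26766480 reads to an effective 22843500, and mutant replicate 2 from 27060698 to 30289700. Relative to CPM, FPKM thus sets WT replicate 1 low and mutant replicate 2 high. How far the sums lie apart with that scaling was not tested. In such bulk samples, fewer cells of a type and less RNA per cell cannot be told apart.

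GAT1 came next in level, with 38.7, 66.8 and 84.4 FPKM in the libraries labelled WT and 57.2, 65.7 and 54.5 FPKM in the mutant. All mutant values lay inside the WT range, and its log2 fold change was -0.11 (95% interval -0.72 to 0.50). OsProT3 (Os07g0100800, chromosome 7), a proline transporter gene, had 42.5, 90.3 and 30.3 FPKM in the libraries labelled WT and 24.2, 42.4 and 16.0 FPKM in the mutant. Replicate 2 was the highest of its group on both sides and the groups overlapped, with a log2 fold change of -1.08 (SE 0.46; edgeR, adjusted p = 0.31). The other proline transporter gene, OsProT1, was at the lower end of all tested members at 0.307 FPKM on average. ATL3I, described below in CPM, came between OsProT3 and OsATL11 in level, at 35.4 FPKM on average. OsATL11 (Os02g0101000, chromosome 2) had 15.1, 20.1 and 38.1 FPKM in the libraries labelled WT and 33.7, 36.7 and 28.4 FPKM in the mutant. OsANT4 (Os04g0565500, chromosome 4), an aromatic and neutral amino acid carrier gene, had 44.0, 26.2 and 15.9 FPKM in the libraries labelled WT and 19.8, 22.5 and 19.8 FPKM in the mutant. For OsATL11 and OsANT4 the WT libraries spread over more than the mutant ones and enclosed them. Behind OsATL5, the order of these genes is not firm, since neighbours in it differ in mean level by less than the spread between libraries of a group.

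**Figure D2:**
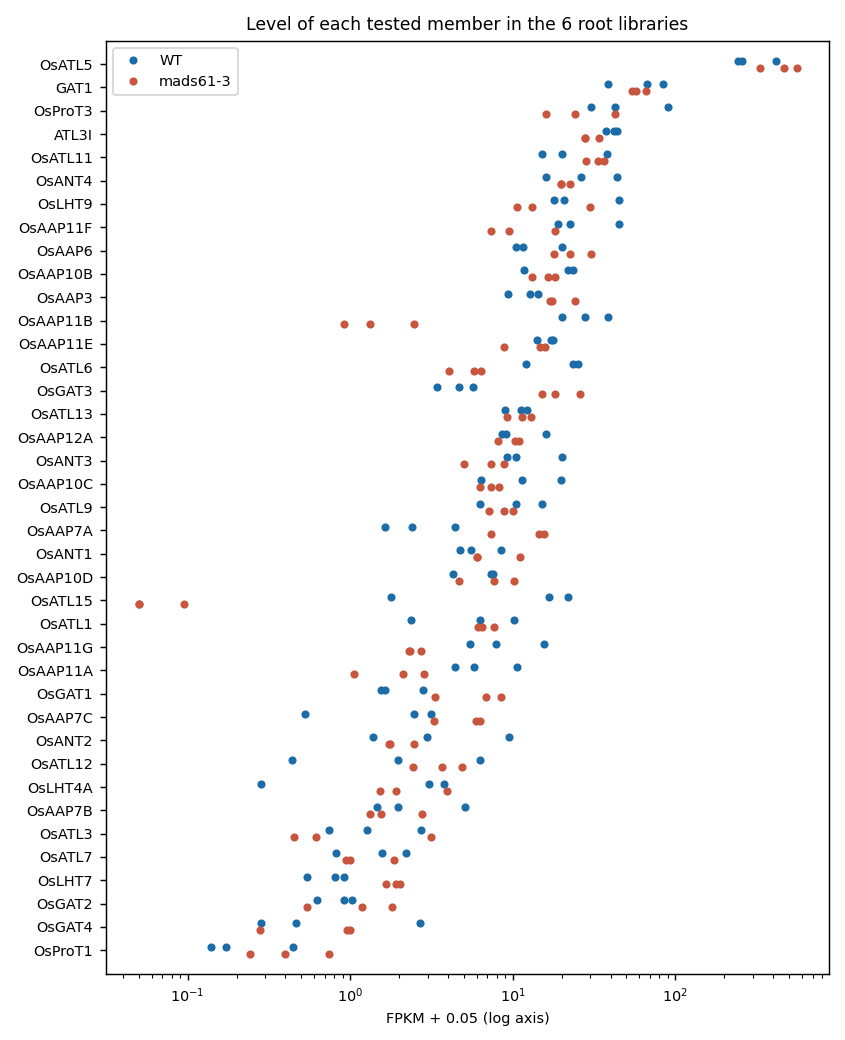
FPKM + 0.05 (log axis) of the 39 tested members in the 6 root libraries, 1 point per library, ordered by mean level, WT and mads61-3 in separate colours. OsATL5 stands alone at the top with 242 to 558 FPKM, and OsProT1 is at the bottom with a mean of 0.307 FPKM.

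Of the 50 members 39 had enough counts to be tested. Another 7 had no read in any library: OsAAP10A, OsAAP11D, OsAAP12C, OsATL8, OsATL10, OsATL14 and OsATL16. A count of 0 allows up to 3 counts, which is 0.0875 to 0.131 CPM per library. The remaining 4, OsAAP11C, OsAAP12B, OsLHT2 and OsLHT8, had at most 4 reads in any library and were not tested.

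OsATL15 and OsAAP11B fell in the mutant and OsGAT3, a GABA transporter gene, rose. They were the members called by edgeR at an adjusted p under 0.05, so 1 of 39 tested members was called higher (2.56%) and 2 were called lower (5.13%), against 0.325% and 0.924% of all features tested. At an unadjusted p under 0.05, 4 members were higher and 8 lower, where the shares over all features were 7.86% higher and 8.68% lower. Groups without any overlap in CPM were found in the same 4 and 8 members, that is 10.3% higher and 20.5% lower, against 11.4% and 11.3% of all features tested. The shares of higher members are thus near the background at these looser rules. DESeq2 gave 4 of 39 members as higher and 6 as lower, with 3.96% and 4.75% over all features. The median log2 fold change of the tested members was -0.29, with 23 negative and 16 positive values, beside a median of -0.04 over all features tested. Without the library labelled WT replicate 3 the members' median was -0.04, and edgeR then called 2 members higher and 4 lower. Calls over all features also rose, to 195 higher and 529 lower of 26191, from 83 and 236 of 25531 with all libraries. The tested members passed a filter on low counts that a gene high in 1 group can pass, so these counts describe them and support nothing further.

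**Figure D3:**
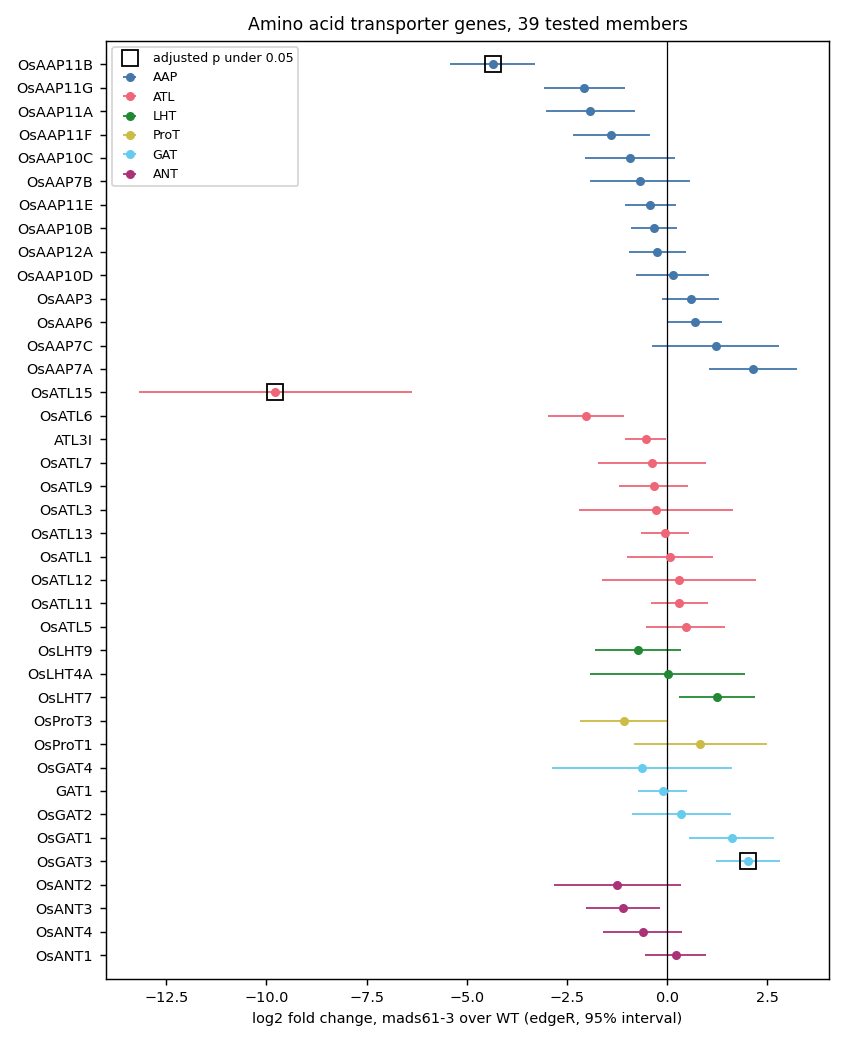
Log2 fold change (mads61-3 over WT) of the 39 tested members with 95% intervals from edgeR, grouped and coloured by family, squares marking an adjusted p under 0.05. OsATL15 lies far to the left at -9.78, OsAAP11B at -4.35 and OsGAT3 at 2.02, and most other intervals include 0.

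OsATL15 (Os01g0597600, chromosome 1) was almost without reads in the mutant. Libraries labelled WT held 726, 69 and 973 of its reads, against 0, 2 and 0 in the mutant. In CPM these were 31.8, 2.73 and 34.6 against 0, 0.066 and 0. WT replicate 2 was well below the other libraries of its label, yet above every mutant library. The ratio of depth-scaled totals, WT over mutant, was 1065 (exact 95% counting interval 294 to 8804), and the fitted log2 fold change was -9.78 (SE 1.44; edgeR, adjusted p = 0.037). The library labelled WT replicate 3, low in OsMADS61, held the highest OsATL15 value. The call was lost without mutant replicate 1, 2 or 3 (edgeR, adjusted p = 0.183, 0.124 and 0.183), in limma-voom (adjusted p = 0.166) and in limma on log2(FPKM + 1) (log2 -3.35, adjusted p = 0.0752). Over all features, edgeR called 0 genes without mutant replicate 1 or 3, and 9 higher and 5 lower without mutant replicate 2. Losses in those settings are therefore not particular to OsATL15. OsATL16, at the preceding locus of the table in the numbering of rice loci, had no read in any library, and the next tested locus beyond OsATL15, Os01g0597800, had 1.72 ± 1.02 CPM in WT and 0.639 ± 0.564 CPM in the mutant, with overlap.

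OsAAP11B (Os12g0181600, chromosome 12), an amino acid permease gene, had 62.6, 36.8 and 72.1 CPM in the libraries labelled WT and 2.45, 4.19 and 1.73 CPM in the mutant. Every library labelled WT, the one low in OsMADS61 included, was above 30 CPM and every mutant library below 5. The mean was 20.5-fold higher in WT (57.1 ± 18.3 against 2.79 ± 1.27 CPM), a log2 fold change of -4.35 (SE 0.45; edgeR, adjusted p = 0.0157). The call was lost without mutant replicate 1, 2 or 3 (edgeR, adjusted p = 0.12, 0.0514 and 0.107), and the adjusted p ranged from 1.39e-20 to 0.12 over all alternative settings. Nearly all calls over all features were also lost without a mutant library. The log2 fold change of OsAAP11B stayed between -4.77 and -4.10 with any 1 library left out. In FPKM the values were 27.8, 19.99 and 38.4 in the libraries labelled WT against 1.27, 2.43 and 0.865.

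The neighbouring gene OsAAP11A (Os12g0181500, chromosome 12) was lower in the mutant by less. It had 12.3, 7.64 and 18.9 CPM in the libraries labelled WT and 3.73, 4.59 and 1.91 CPM in the mutant, without overlap. Its log2 fold change was -1.92 (SE 0.47), which did not pass in edgeR (adjusted p = 0.108) and did in DESeq2 (adjusted p = 0.00261). The loci Os12g0181533 and Os12g0181701, either side of OsAAP11B in the numbering, were also without overlap, at 0.43 ± 0.245 and 0.567 ± 0.161 CPM in WT and 0.135 ± 0.121 and 0.0414 ± 0.0361 CPM in the mutant, levels too low for a test. Whether reads of such neighbours overlap, or were split between similar copies, cannot be told from the files, because the use of strand in counting is not given. The locus after these, Os12g0181900, was at 6.62 ± 1.07 CPM in WT and 7.24 ± 0.836 CPM in the mutant.

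Other genes that share the number 11 in their symbol lay on the same side, a grouping made after their values were seen. All 5 tested OsAAP11 genes had negative log2 fold changes, from -4.35 to -0.43, and in 4 of them the groups did not overlap, beside 52.8% of all features tested with a negative value and 11.3% lower without overlap. OsAAP11G (Os04g0490900, chromosome 4) had 9.06, 14.7 and 5.16 CPM in the libraries labelled WT and 2.19, 2.38 and 2.31 CPM in the mutant, where the libraries were close together. Its log2 fold change of -2.07 (SE 0.43) missed the threshold in edgeR (adjusted p = 0.0729). It passed in edgeR without the library labelled WT replicate 3 (adjusted p = 0.0247) and in DESeq2 (adjusted p = 0.000271). OsAAP11F (Os05g0424000, chromosome 5) had 46.6, 91.1 and 46.0 CPM in the libraries labelled WT and 19.6, 34.5 and 15.8 CPM in the mutant, which is a log2 fold change of -1.39 (SE 0.41; edgeR, adjusted p = 0.155). DESeq2 called OsAAP11F (adjusted p = 0.0231). Replicate 2 of each label was the highest, as for OsProT3 and OsLHT9. OsAAP11E overlapped between groups, with a log2 fold change of -0.43 (95% interval -1.06 to 0.21).

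Among the other permeases, OsAAP7A (Os04g0470700, chromosome 4) went the other way. It had 3.63, 4.40 and 8.22 CPM in the libraries labelled WT and 29.8, 12.8 and 28.7 CPM in the mutant. The lowest mutant library was still above the highest WT one, and the mean was 4.38-fold higher in the mutant. The log2 fold change of 2.13 (SE 0.46) missed the threshold in edgeR (adjusted p = 0.0825), while it passed without the library labelled WT replicate 3 (adjusted p = 0.0473) and in DESeq2 (adjusted p = 0.000499). OsAAP7C had a log2 fold change of 1.21 and OsAAP7B one of -0.69, both with overlap between the groups. For the well-expressed OsAAP6 (Os07g0134000) and OsAAP3 (Os02g0722400) the log2 fold changes were 0.68 (95% interval -0.01 to 1.37) and 0.59 (95% interval -0.12 to 1.295), and their groups overlapped in CPM. OsAAP10B, OsAAP10C, OsAAP10D and OsAAP12A had values between -0.93 and 0.13, with overlap in each.

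**Figure D4:**
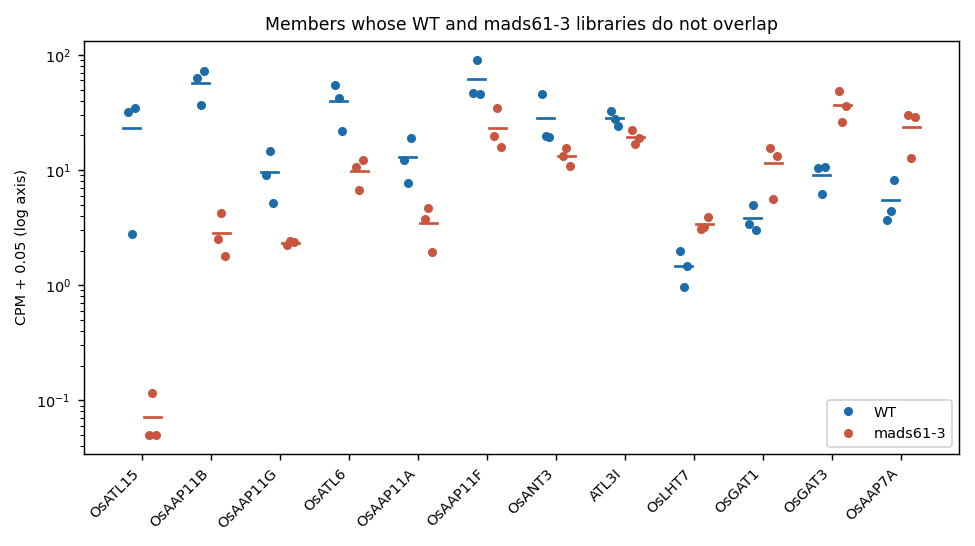
CPM + 0.05 (log axis) in each library of the 12 members whose groups do not overlap, ordered by log2 fold change, with points for libraries and lines for group means. The 8 members on the left are lower in mads61-3 and the 4 on the right are higher, and OsATL15 in the mutant lies at or just above the offset.

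GABA carriers held the member that rose. OsGAT3 (Os01g0857400, chromosome 1) had 10.4, 6.18 and 10.6 CPM in the libraries labelled WT and 48.7, 25.9 and 35.6 CPM in the mutant. The lowest mutant library was above all libraries labelled WT by more than their whole range. Its mean was 4.05-fold higher in the mutant (36.7 ± 11.5 against 9.07 ± 2.50 CPM), and its log2 fold change was 2.02 (SE 0.34; edgeR, adjusted p = 0.0489). The call stood just inside the threshold, and it was lost without WT replicate 1 or 2 (adjusted p = 0.0503 and 0.115), without mutant replicate 1, 2 or 3 (edgeR, adjusted p = 0.189, 0.0743 and 0.202) and in limma-voom (adjusted p = 0.0539). The loci on either side, Os01g0857300 and Os01g0857500, had log2 fold changes of -0.07 and -0.43, with overlap.

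OsGAT1 (Os05g0586500, chromosome 5) had 3.33, 4.95 and 2.95 CPM in the libraries labelled WT and 15.6, 5.58 and 13.2 CPM in the mutant. Mutant replicate 2 was close to WT replicate 2, and the other mutant libraries were well above all others. Its log2 fold change of 1.61 (SE 0.45) passed in DESeq2 (adjusted p = 0.014) and not in edgeR (adjusted p = 0.141). OsGAT2 and OsGAT4 were at 0.97 and 0.896 FPKM on average and overlapped between groups.

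OsATL6 (Os02g0191300, chromosome 2) was the other ATL gene with a wide gap. It had 54.6, 41.9 and 21.9 CPM in the libraries labelled WT and 10.5, 6.64 and 12.1 CPM in the mutant. Among the libraries labelled WT, the one low in OsMADS61 was the lowest, and still above every mutant library. The log2 fold change was -2.02 (SE 0.40; edgeR, adjusted p = 0.0663), with an adjusted p of 0.0227 without the library labelled WT replicate 3 and 0.000141 in DESeq2. ATL3I had 32.5, 27.9 and 24.2 CPM in the libraries labelled WT and 22.4, 16.7 and 19.0 CPM in the mutant, a narrow gap with a log2 fold change of -0.54 (SE 0.22; edgeR, adjusted p = 0.284). The other 8 tested ATL genes had log2 fold changes from -0.38 to 0.46, with overlap in each.

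Of the 3 tested LHT genes, OsLHT7 (Os04g0562100, chromosome 4) did not overlap between groups, at 1.93, 0.911 and 1.42 CPM in the libraries labelled WT and 3.00, 3.17 and 3.89 CPM in the mutant. This gene was low in both groups, and its log2 fold change of 1.24 (SE 0.40) passed in DESeq2 (adjusted p = 0.0433) and not in edgeR (adjusted p = 0.19). OsLHT9, the most abundant of the LHT genes, had 39.1, 80.4 and 37.1 CPM in the libraries labelled WT and 24.0, 49.8 and 20.2 CPM in the mutant. Replicate 2 of both groups was again high, and the log2 fold change was -0.74 (95% interval -1.81 to 0.34). OsANT3 (Os02g0670900, chromosome 2) had 45.7, 19.7 and 19.3 CPM in the libraries labelled WT and 13.2, 15.6 and 10.7 CPM in the mutant. WT replicate 1 was far above the other WT libraries, and the log2 fold change of OsANT3 was -1.10 (SE 0.39), past the threshold in neither edgeR (adjusted p = 0.231) nor DESeq2 (adjusted p = 0.0914). OsANT1 and OsANT2 overlapped between groups. Their log2 fold changes were 0.21 (95% interval -0.56 to 0.98) and -1.24 (95% interval -2.82 to 0.33). Without the library labelled WT replicate 3, that of OsANT2 was -0.18.

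**Figure D5:**
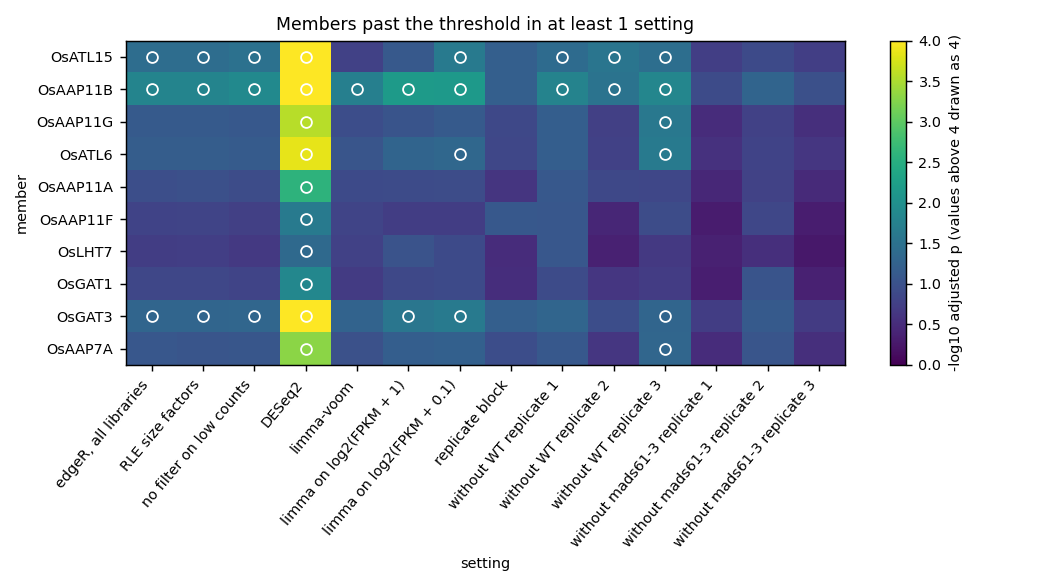
Adjusted p, as -log10 with values above 4 drawn as 4, of the 10 members past the threshold in at least 1 of 14 settings, with circles where it was under 0.05. OsATL15 and OsAAP11B carry most circles, DESeq2 has a circle for all 10, and the settings without a mads61-3 library and with the replicate block have none. Without a mads61-3 library, edgeR called at most 9 genes higher and 5 lower over all features.

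Carriers of other organic nitrogen compounds, 41 genes with symbols of the UMAMIT amino acid exporters and of peptide (PTR), oligopeptide (OPT), polyamine (PUT), bidirectional amino acid (BAT), urea (DUR) and ureide (UPS) transporters, lay mostly on the other side. Of 31 tested, 24 had positive and 7 negative log2 fold changes (median 0.76), and 1 was called higher and 0 lower by edgeR (unadjusted p under 0.05 in 11 that were higher and 3 that were lower; DESeq2, 8 higher and 1 lower). Over all features tested 47.2% were positive, 0.325% and 0.924% were called higher and lower by edgeR, 7.86% and 8.68% had an unadjusted p under 0.05, and 3.96% and 4.75% were called by DESeq2. OsBAT3 (Os01g0945200, chromosome 1), which rose, had 2.01, 1.35 and 1.78 CPM in the libraries labelled WT and 8.63, 6.24 and 7.38 CPM in the mutant. Its log2 fold change was 2.11 (SE 0.33; edgeR, adjusted p = 0.0393), with a highest adjusted p of 0.191 over the alternative settings. The most abundant of them, OsPUT3, OsPTR8 and OsOPT8, had log2 fold changes of 0.30, 1.03 and 0.81 and were not called by edgeR with all libraries. DESeq2 called OsPTR8 (adjusted p = 0.0333), and edgeR called OsOPT8 without the library labelled WT replicate 3 (adjusted p = 0.0422). The difference between this list and the amino acid transporter genes was not tested.

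Among enzymes that make or break down amino acids around glutamate, ASN1 and OsGLN2 fell. Of 16 tested, 14 had negative and 2 positive log2 fold changes (median -0.66), and edgeR called 2 lower and 0 higher (6 and 0 at an unadjusted p under 0.05; DESeq2, 6 and 0). The shares over all features were 52.8% negative, 0.924% called lower by edgeR, 8.68% lower at an unadjusted p under 0.05 and 4.75% lower in DESeq2. In 7 of the 16 every mutant library was below every library labelled WT, against 11.3% of all features. ASN1, of asparagine synthetase, and OsGLN2, of glutamine synthetase, had log2 fold changes of -2.07 (SE 0.20; edgeR, adjusted p = 0.0146) and -3.17 (SE 0.43; adjusted p = 0.0298). Each was called in 9 of 13 alternatives, and neither without any 1 mutant library, where nearly all calls over all features were lost. With the replicate number as a block ASN1 missed the threshold (edgeR, adjusted p = 0.0521) and OsGLN2 passed (adjusted p = 0.0475). Of the more abundant genes, OsGS1 and GLN1, both of glutamine synthetase, had log2 fold changes of 0.34 and -0.27. ALAAT, an alanine aminotransferase gene, had 753, 752 and 455 CPM in the libraries labelled WT and 219, 124 and 211 CPM in the mutant, which is a log2 fold change of -1.82 (SE 0.35; edgeR, adjusted p = 0.0642). It was called in 4 of 13 alternatives. Among these were DESeq2 (adjusted p = 2.11e-05) and edgeR without the library labelled WT replicate 3 (adjusted p = 0.0356).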

How the data were processed

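Root RNA of 3 WT and 3 mads61-3 samples was extracted with Trizol and made into mRNA libraries, per the labels' protocols. The deposited counts are whole-number read counts per feature, not normalised, and the deposited FPKM values are the authors' fragment values per feature length and depth. Per the submitters' processing notes, HISAT2 2.0.5 and StringTie 1.3.3 were among the tools, and GRCh38, a human build, is named although the loci are rice. For the rice build, annotation, counter and strand setting nothing is given in the sources used here. Chromosomes were therefore read from the locus names, with no coordinates or sequences. Deposited columns named mads61 with a number were read as replicates of line mads61-3. All 12 value columns were used.

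Members and lists were chosen with earlier results of these data known. The list of enzymes was written from memory and matched by locus, and 1 of its 17 loci was not analysed here. WT and mutant were compared with edgeR 4.0.16 (R 4.3.3) by its two-sided quasi-likelihood test, using TMM scaling, robust estimation, the default filter (minimum count 10, minimum total 15) and a model of group alone. Benjamini-Hochberg adjustment ran over 25531 features, and a call needs an adjusted p under 0.05. SE is the size of the log2 fold change over the square root of F. The code was tested on simulated counts. Alternatives used RLE scaling, no filter, DESeq2 1.42.0, limma 3.58.1 (voom, or log2(FPKM + 1) and log2(FPKM + 0.1)), the replicate number as a block, and each library left out. Values in every library were given for members called in any setting, without overlap between groups, or among the 6 most abundant in FPKM. Intervals on counts and the limits at 0 cover counting error only, since such reads carry no molecular identifiers and are not independent molecules.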

Additional observations from a re-analysis of the deposited data

How the results depend on the processing

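Over all features edgeR called 83 genes higher and 236 lower, and DESeq2 1127 and 1354, limma-voom 77 and 184, limma on log2(FPKM + 1) 203 and 320, with a pseudocount of 0.1 instead 247 and 377, and the fit with a replicate block 18 and 63. Leaving out 1 library gave 0 to 228 higher and 0 to 529 lower. The low ends came from the mutant libraries, with 0 and 0 without mutant replicate 1 or 3. Without mutant replicate 2 the calls were 9 and 5. Of the amino acid transporter genes edgeR called 1 higher and 2 lower, DESeq2 4 and 6, and limma-voom 0 and 1. Calls by limma were 1 and 1 on log2(FPKM + 1), and 1 and 3 with a pseudocount of 0.1. The replicate block gave 0 and 0, and leaving out 1 library gave 0 to 2 higher and 0 to 4 lower. OsATL15 and OsAAP11B had adjusted p-values of 0.0616 and 0.0607 with the block, and OsGAT3 0.0607. For the other organic nitrogen transporters 8 were called higher and 1 lower in DESeq2, 0 higher with the block and 0 to 4 higher with 1 library left out. For the enzymes 6 were lower in DESeq2, 1 with the block and 0 to 4 with 1 library left out. Whether the numbers in the labels pair the samples was not settled, since deviations within so small a group are tied to each other. Deviations of same-numbered samples correlated across genes at 0.146, 0.264 and -0.236, and those of differently numbered samples at -0.338 to 0.331. The median of the members ranged from -0.28 to -0.037 with 1 library left out, the latter without the library labelled WT replicate 3, and leaving out ATL3I and GAT1, chosen after seeing the data, kept it at -0.29. On log2(FPKM + 0.1) the median of all features moved from -0.04 to 0.10, and the members' median was -0.25 relative to it in both fits. The log2 fold change of OsMADS61 was -6.40 in edgeR, where it was not called (adjusted p = 0.129). It was called in DESeq2 (-6.39, adjusted p = 0.00082), and also when the library labelled WT replicate 3 was left out (-6.99, adjusted p = 0.00746). It was not called in limma-voom (-4.49, adjusted p = 0.437), in limma on FPKM (-4.10 and -4.35, adjusted p = 0.28 and 0.303), with the block (-5.50, adjusted p = 0.419) or without any 1 other library (-6.67 to -5.96, adjusted p = 0.0974 to 0.41). Of 39 members 27 kept their sign in all 13 alternatives. The 12 others had log2 fold changes of at most 0.62 in size, and in none of their 22 reversed values was the gene called. With 1 library left out, GAT1 ranged from -0.31 to 0.12, OsAAP10D from -0.12 to 0.36, OsAAP12A from -0.41 to 0.036, OsANT1 from -0.066 to 0.45, OsATL1 from -0.29 to 0.57, OsATL12 from -0.21 to 1.57, OsATL13 from -0.21 to 0.15, OsATL3 from -1.62 to 0.31, OsATL7 from -0.86 to 0.14, OsGAT2 from -0.030 to 0.68, OsGAT4 from -1.06 to 0.99 and OsLHT4A from -0.52 to 0.53. OsATL13 was at 0.044 (pseudocount 1) and 0.047 (pseudocount 0.1) in limma on FPKM, and OsLHT4A at -0.0028 with RLE scaling and -0.00031 in DESeq2. The cause of these changes was not tested. At these depths a member without a read can still have stood at 0.0875 to 0.131 CPM.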
